A study of Mus musculus with 8 samples.

Results

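The genes examined here were 56 named genes of DNA replication and mitosis, of 24421 genes counted in every library. They were found by matching a fixed list of symbols to the gene symbols of the count files, and all 56 were present. Of these, 33 act in DNA replication and 23 in mitosis, and both lists are described apart. They were measured in R1 mouse embryonic stem (mES) cells, an established line of pluripotent cells, with long reads of polyadenylated RNA from Oxford Nanopore Technologies (ONT). Undiff cells were grown in mES growth medium and received no retinoic acid (RA), and Day4 cells were embryoid bodies, floating aggregates in which ES cells differentiate, kept 4 days without leukaemia inhibitory factor (LIF) and then 4 days with RA, an inducer of differentiation. The labels name no genetic change in either group. The RA dose is 2 µM in the series design and in the study's methods, while a treatment label gives it in mM units.

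All libraries came from R1 cells, so the results describe that line alone. Undiff cells are described as cells maintained with LIF in the study's methods and as embryoid bodies in the tissue label. RA, aggregation, loss of LIF and days in culture changed together between Undiff and Day4 and cannot be told apart. Each state was sequenced with the Direct RNA kit, in which the native RNA strand is read, and with the cDNA kit, in which RNA is copied to cDNA and amplified by PCR. Each combination of kit and state had 2 replicates, giving 8 libraries in 4 groups. The study's methods describe 2 separately grown cultures a state, whose RNA went into both kits, so a gene lower on both platforms was not measured in independent cultures. The labels do not say whether libraries of the same number share a culture. Levels are given as CPM, reads of a gene per 1e6 reads on genes, and n is 2 in every group.

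Before each division a cell licenses its replication origins by loading the MCM helicase with the help of ORC, CDC6 and CDT1. Cyclin-dependent kinases then start DNA synthesis, which needs polymerases, the sliding clamp PCNA and a supply of deoxynucleotides. Cyclin B with CDK1 drives entry into mitosis, and the spindle checkpoint holds chromosomes until the anaphase-promoting complex, activated by CDC20, releases them. Mouse ES cells are known for fast division with a short G1 phase and for high cyclin E. Many replication genes are targets of E2F factors, and many mitotic genes carry a cell cycle homology region (CHR) and CCAAT boxes in their promoters.

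Reads on genes ranged from 283461 to 907489 in the Direct RNA libraries and from 948657 to 2088592 in the cDNA libraries. Replicate 2 was the deeper library in every group. The floor of 3 reads was 3.31 to 10.6 CPM for Direct RNA libraries and 1.44 to 3.16 CPM for cDNA libraries, and covers counting error only. The summed level of 6 pluripotency markers (Pou5f1, Nanog, Sox2, Zfp42, Tdgf1 and Dppa5a) was 10259.5 to 12208 CPM in Direct RNA Undiff and 106 to 511 CPM in Direct RNA Day4, and 20757 to 23407 CPM in cDNA Undiff and 82.7 to 913 CPM in cDNA Day4. On both platforms the higher Day4 value was that of replicate 2. Reads of 5 mesenchymal markers (Col1a1, Col1a2, Col3a1, Pdgfra and Twist1) summed to at most 11.5 CPM in every Undiff library and to between 259 and 3112 CPM in the Day4 libraries. Those of 4 endodermal markers (Gata4, Gata6, Sox17 and Foxa2) summed to at most 8.61 CPM in Undiff and to between 107 and 797 CPM in Day4. Of 5 neural markers, Sox1, Pax6, Neurog2 and Dcx held 0 to 9 reads in every library, and Tubb3 held 57 to 339 in Undiff and 3 to 46 in Day4. Of 4 blood and endothelial markers, Ptprc had 0 reads in all 8 libraries, Hbb-bh1 had 0 in Undiff and 151 to 1008 in Day4, Cdh5 had 0 in Undiff and 4 to 19 in Day4, and Pecam1 had 30 to 70 in Undiff and 6 to 52 in Day4. Several markers of other cell types thus moved with the state, and their part in the results below was not tested. In bulk RNA, fewer cells of a type and less RNA per cell cannot be told apart.

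Promoter windows are shown for some of the members called between the states, chosen in part for holding a match. DESeq2 called a member when its adjusted p did not exceed 0.05, its log2 fold change was 1 or more in either direction and its normalized counts averaged 5 or more. The letters searched, on both strands, were TTTCCCGC, TTTGGCGC, TTTCGCGC and TTTGCCGC for E2F, TTTGAA and TTCGAA for the CHR, and CCAAT for the CCAAT box. Windows are from RefSeq on GRCm38.p6, in the gene's direction, and run from 160 bases before the start of transcription to 30 bases after it. Matches are in capitals. A match is a description of the letters and not a bound site. The first set holds the replication members that were called on both platforms, or on 1 platform with an E2F or CHR match inside these bases.
Orc1: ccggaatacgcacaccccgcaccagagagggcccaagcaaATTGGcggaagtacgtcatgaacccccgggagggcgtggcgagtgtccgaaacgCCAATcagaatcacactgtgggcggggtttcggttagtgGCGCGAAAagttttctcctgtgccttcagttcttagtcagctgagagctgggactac
Mcm10: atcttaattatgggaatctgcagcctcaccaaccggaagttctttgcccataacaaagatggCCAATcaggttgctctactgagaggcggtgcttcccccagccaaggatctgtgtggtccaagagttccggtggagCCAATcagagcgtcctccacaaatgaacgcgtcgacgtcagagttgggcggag
Ccne1: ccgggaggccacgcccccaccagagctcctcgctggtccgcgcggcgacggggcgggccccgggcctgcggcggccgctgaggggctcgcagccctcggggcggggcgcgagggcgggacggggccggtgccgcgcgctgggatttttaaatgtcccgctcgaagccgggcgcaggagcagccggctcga
Cdc6: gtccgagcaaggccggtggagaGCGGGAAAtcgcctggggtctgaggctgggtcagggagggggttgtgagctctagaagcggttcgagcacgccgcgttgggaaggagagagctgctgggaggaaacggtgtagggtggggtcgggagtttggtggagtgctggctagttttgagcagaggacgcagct
Mcm5: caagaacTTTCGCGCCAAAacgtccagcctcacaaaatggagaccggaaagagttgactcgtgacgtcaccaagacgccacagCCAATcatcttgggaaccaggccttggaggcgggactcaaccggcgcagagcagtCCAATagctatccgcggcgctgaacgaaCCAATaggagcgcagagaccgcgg
Mcm2: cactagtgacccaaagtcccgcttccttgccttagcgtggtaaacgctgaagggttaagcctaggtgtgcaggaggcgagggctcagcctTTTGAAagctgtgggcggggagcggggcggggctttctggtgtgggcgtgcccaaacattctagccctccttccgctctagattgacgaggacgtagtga

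These windows lie at chr4:108579294-108579483 (plus strand) for Orc1, chr2:5012762-5012951 (minus strand) for Mcm10, chr7:38107461-38107650 (minus strand) for Ccne1, chr11:98907991-98908180 (plus strand) for Cdc6, chr8:75109349-75109538 (plus strand) for Mcm5 and chr6:88898751-88898940 (minus strand) for Mcm2. The E2F letters began 27 bases before the start in Orc1, 138 before it in Cdc6 and 153 before it in Mcm5, where a second match on the other strand overlapped the first. Mcm10 held CCAAT 98 and 23 bases before the start and no E2F letters, Mcm2 held the CHR letters 70 bases before it, and Ccne1 held none of the letters searched. The second set holds the mitotic members chosen in the same way.
Cdc20: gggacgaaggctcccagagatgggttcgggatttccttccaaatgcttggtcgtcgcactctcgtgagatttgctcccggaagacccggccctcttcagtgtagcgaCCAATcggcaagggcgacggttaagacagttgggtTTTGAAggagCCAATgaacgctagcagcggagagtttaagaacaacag
Aurka: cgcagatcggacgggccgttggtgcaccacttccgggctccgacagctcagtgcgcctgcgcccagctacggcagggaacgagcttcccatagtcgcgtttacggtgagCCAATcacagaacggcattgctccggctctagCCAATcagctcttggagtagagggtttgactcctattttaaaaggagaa
Kif11: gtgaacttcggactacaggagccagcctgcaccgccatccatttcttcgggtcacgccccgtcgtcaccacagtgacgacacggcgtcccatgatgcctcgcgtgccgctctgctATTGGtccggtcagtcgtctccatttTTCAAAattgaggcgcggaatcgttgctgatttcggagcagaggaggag

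They lie at chr4:118437314-118437503 (minus strand) for Cdc20, chr2:172370541-172370730 (minus strand) for Aurka and chr19:37376222-37376411 (plus strand) for Kif11. In Cdc20 the CHR letters began 18 bases before the start, between CCAAT boxes 53 and 8 bases before it. In Kif11 they began 19 bases before the start on the opposite strand, with a CCAAT box 45 bases before it. Aurka held CCAAT boxes 51 and 19 bases before the start. Of the 16 called members 14 had a window. Those of Rrm2, Ccnb1, Cks2, Birc5 and Bub1b are not shown, having no E2F or CHR match inside these bases. Rrm2, Ccnb1, Cks2 and Birc5 held none in the longer windows described next either, and the CHR letters of Bub1b lay outside the printed bases. The printed windows therefore do not stand for the called members as a whole.

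Over windows of 300 bases, 250 before the start and 50 after it, E2F letters were in 11 of the 26 replication members that had a window (42.3%) and in 1 of the 18 mitotic members (5.56%, Cdk1), against 487 of 17224 genes of the files with a window (2.83%). The CHR letters were in 4 of 26 replication members (15.4%) and 13 of 18 mitotic members (72.2%), against 17.4% of all windows. CCAAT was in 17 of 26 (65.4%) and 16 of 18 (88.9%), against 38.8%. All 13 mitotic windows with CHR letters also held CCAAT, as did 3 of the 4 replication windows with them and 1242 of the 2989 windows with them over all genes (41.6%). These counts are descriptions of the windows at hand: 44 of the 56 members (78.6%) had a window, which is below the 80% set for a check over a list, so a comparison of the lists by their promoters is void. Mcm4, Gmnn, Gins1, Gins2, Rfc2, Pole, Ccne2, Ccna2, Aurkb, Incenp, Kif20a and Tpx2 had none. In the 150 bases before the start alone, 7 replication windows held E2F letters (all windows 1.55%) and 7 mitotic windows held CHR letters (all windows 8.23%).

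The comparison of Day4 with Undiff asked how the cell division genes changed as ES cells differentiated. In Direct RNA 10 of the 56 members fell and none rose, and in cDNA 11 fell and none rose. All 56 members passed the filter on the mean normalized count on both platforms. Orc1, which marks origins, Ccne1, the cyclin of the G1/S transition, and Mcm10, which activates the helicase, had the lowest mean log2 fold changes of the replication list. Cdc20 and the kinase Aurka had the lowest mean log2 fold changes over both platforms in the mitotic list, and these 5 genes were lower on both. They were 50.0% of the Direct RNA calls and 45.5% of the cDNA calls, where over all genes the 452 shared calls were 61.1% and 47.6%. The 10 Direct RNA calls compare with 7.67% of all 9646 genes called lower and 9.54% called higher in that comparison. The 11 cDNA calls compare with 9.24% of all 10271 genes called lower and 8.69% called higher.

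In Direct RNA 6 of 33 replication members fell (Orc1, Ccne1, Mcm10, Pole, Cdc6 and Mcm5) and 4 of 23 mitotic members fell (Cdc20, Kif11, Aurka and Bub1b). In cDNA 6 of 33 replication members fell (Ccne1, Orc1, Mcm10, Mcm2, Gmnn and Rrm2) and 5 of 23 mitotic members fell (Cdc20, Cks2, Aurka, Birc5 and Ccnb1). By edgeR 8 and 5 members were lower for the Direct RNA kit, with Rpa2, Pold1 and Incenp added, and 10 and 7 for the cDNA kit, with Cdt1, Gins2, Rfc4, Pole, Plk1 and Bub1b added and 1 mitotic member, Mki67, higher. The edgeR shares over all genes were 15.1% lower against 18.7% higher with Direct RNA, and 15.5% against 17.1% with cDNA. Median log2 fold changes were -0.61 for the replication list and -0.59 for the mitotic list in Direct RNA, where the median of all genes was 0.03. In cDNA they were -0.62 and -0.87, where the median of all genes was 0.00. Scaling by library totals moved the median of all genes in cDNA from 0.00 to 0.33, and the lists then stood at -0.27 and -0.54, that is -0.60 and -0.87 from the median of all genes. With that scaling 2 of 33 replication members (Orc1 and Ccne1) and 1 of 23 mitotic members (Cks2) were called lower in cDNA. There 6.34% of all genes were called lower, so the members were not called more often than all genes. In Direct RNA 5 of 33 and 3 of 23 were called lower, beside 6.6% of all genes. With TMM factors 5 replication and 4 mitotic members were lower in cDNA, without Rrm2 and Ccnb1, beside 8.9% of all genes, while Direct RNA kept its counts of 6 and 4 beside 7.46%. At least 10 reads in every library were found for 29 replication and 23 mitotic members in Direct RNA, of which 2 and 4 were called lower, beside 7.58% of the genes then tested. In cDNA 30 and 20 members had them, and 4 and 3 were called lower, beside 9.1%. A negative log2 fold change was found for 50 of 56 members in Direct RNA, where 48.9% of all genes had one, and for 52 of 56 in cDNA, where 49.9% had one.

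Leaving out a library lowered the number of members called on both platforms. In Direct RNA 3 members were called lower without Undiff replicate 1, 1 without Undiff replicate 2, 5 without Day4 replicate 1 and 4 without Day4 replicate 2, and between 1.42% and 4.02% of all genes were then called lower. In cDNA the numbers were 2, 2, 1 and 1 in the same order, with between 3.93% and 4.38% of all genes. Such a fit leaves 1 library in a group, which is then assumed to vary like the other group. Of the 10 Direct RNA calls 5 were lost in all 4 of these fits (Cdc6, Pole, Aurka, Bub1b and Kif11), and of the 11 cDNA calls 7 were (Mcm2, Mcm10, Gmnn, Rrm2, Ccnb1, Aurka and Cdc20). With the replicate number as a block, the same 5 Direct RNA calls were lost, as were those of Mcm10 and Cdc20 in cDNA. With the block 4.02% of all genes were called lower in Direct RNA and 7.57% in cDNA. Aurka, Mcm10 and Cdc20 were also not called in cDNA with library totals. Orc1 and Ccne1 were called on both platforms under every other setting with all libraries that could fit them. The median over all 56 members ranged from -0.76 to -0.62 by Direct RNA and by cDNA from -0.88 to -0.57.

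**Figure D1:**
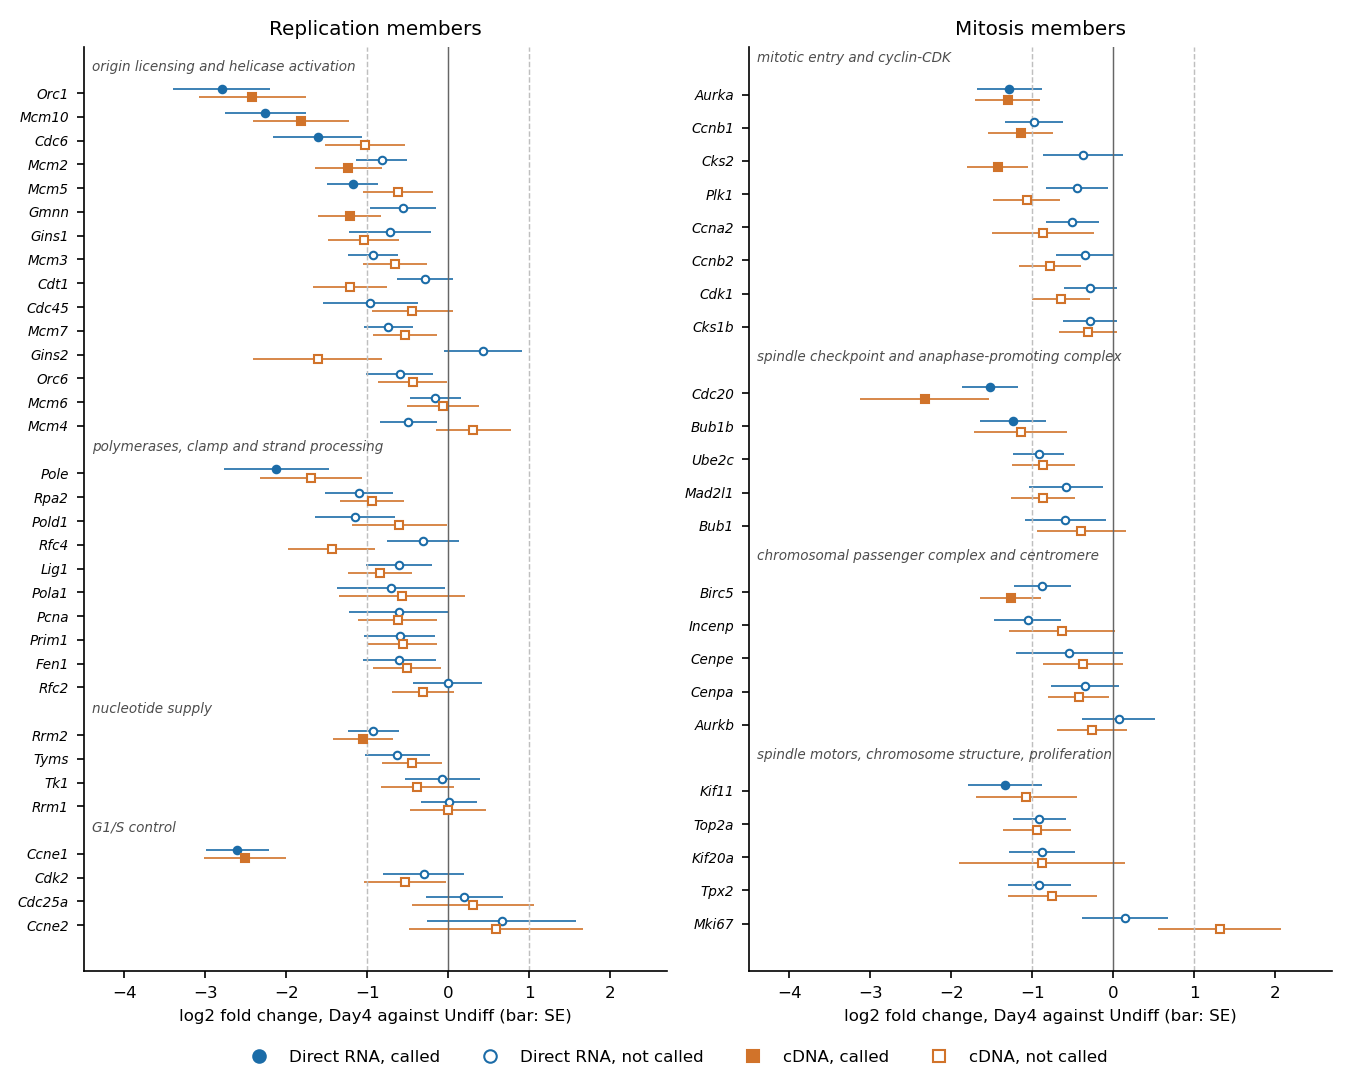
Log2 fold change of each of the 56 members between Day4 and Undiff, by role, from DESeq2 in Direct RNA (circles) and cDNA (squares), with its standard error. Filled symbols passed the test, and all of them lie to the left of -1, in the direction of lower Day4 levels.

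Summed over the 33 replication members, the level was 7542 and 6827 CPM in the Direct RNA Undiff libraries and 4685 and 4661 CPM in the Day4 libraries. In cDNA it was 5225 and 5562 CPM in Undiff and 3787 and 4307 CPM in Day4. Both Day4 libraries lay below both Undiff libraries on each platform, at 0.65 times the Undiff mean in Direct RNA and 0.75 times in cDNA. Over the 23 mitotic members the sums were 6144 and 6066 CPM in Direct RNA Undiff and 3602 and 4227 CPM in Day4, and 6300.5 and 7149 CPM in cDNA Undiff and 4146 and 5251 CPM in Day4. The Day4 mean was 0.64 times the Undiff mean in Direct RNA and 0.70 times in cDNA, again without overlap. With DESeq2 normalized counts in place of CPM the ratios for replication were 0.61 in Direct RNA and 0.60 in cDNA, and those for mitosis 0.60 and 0.56. With 2 libraries a group an exact permutation test cannot reach p = 0.05, so no test is given for these sums.

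**Figure D2:**
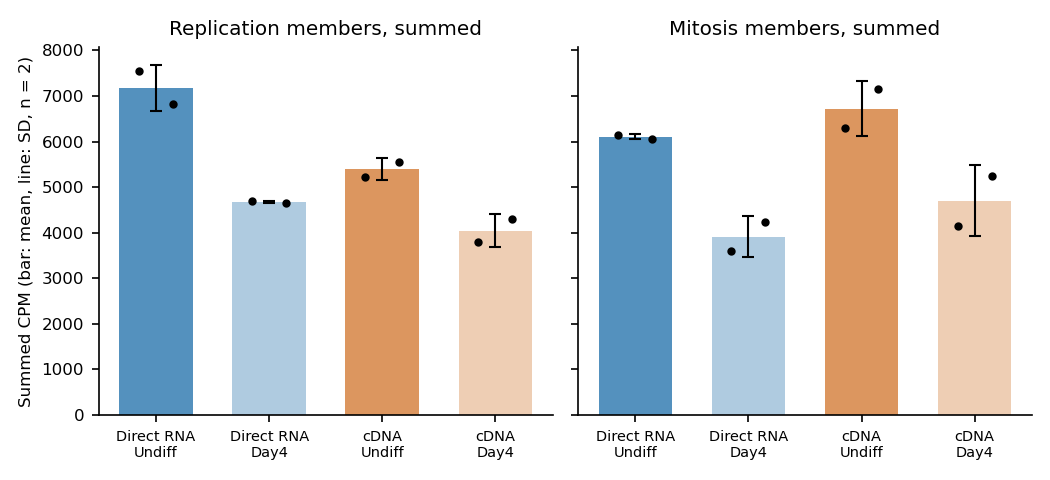
Summed CPM of the 33 replication members (left) and the 23 mitotic members (right) in each group, as mean (bar), SD (line, n = 2) and single libraries (points). Every Day4 library lies below both Undiff libraries of its platform, for example 4685 and 4661 CPM against 7542 and 6827 CPM for replication in Direct RNA.

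Gene by gene, both Day4 CPM values lay below both Undiff values for 39 of the 56 members in Direct RNA, where this held for 30.3% of all genes, and for 26 members in cDNA, where it held for 23.2%. The reverse held for 1 member in each, Ccne2 in Direct RNA and Mki67 in cDNA. How many of all genes did so was not counted, so these numbers have no background. Of the replication members, 24 lay below without overlap in Direct RNA and 15 in cDNA, and of the mitotic members 15 and 11.

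The origin licensing and helicase group of 15 genes held 4 of the calls on each platform, with a median log2 fold change of -0.74 in Direct RNA and -1.03 in cDNA. Orc1, the largest subunit of the origin recognition complex, had 123 and 134 CPM in the Direct RNA Undiff libraries and 10.6 and 23.0 CPM in the Day4 libraries. With the cDNA kit the levels were 25.3 and 63.2 CPM in Undiff and 6.07 and 13.0 CPM in Day4. Both Day4 libraries were below both Undiff libraries on each platform, and the Day4 values rest on few reads, with 43 and 122 reads in the Direct RNA Undiff libraries and 3 and 17 in the Day4 libraries. The log2 fold change was -2.80 (standard error 0.60, adjusted p = 0.000101) in Direct RNA and -2.42 (standard error 0.66, adjusted p = 0.00404) in cDNA.

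Mcm10 had 178 and 174 CPM in the Direct RNA Undiff libraries and 49.4 and 29.8 CPM in the Day4 libraries. The cDNA libraries gave 35.8 and 67.5 CPM in Undiff and 10.6 and 24.6 CPM in Day4. The groups did not overlap on either platform, and the cDNA Undiff replicates differed more from each other than the Direct RNA ones. The log2 fold change was -2.25 (standard error 0.50, adjusted p = 0.000157) in Direct RNA and -1.82 (standard error 0.60, adjusted p = 0.0245) in cDNA.

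Cdc6, which loads the MCM helicase with Cdt1, had 109 and 106 CPM in the Direct RNA Undiff libraries and 31.8 and 39.3 CPM in the Day4 libraries. Its cDNA levels were 54.8 and 87.1 CPM in Undiff and 34.9 and 51.0 CPM in Day4. The groups were apart on both platforms, and the change passed the test in Direct RNA, at -1.61 (standard error 0.55, adjusted p = 0.0347), and not in cDNA, at -1.03 (standard error 0.49, adjusted p = 0.197). Mcm2, a subunit of the helicase, had 459 and 457 CPM in the Direct RNA Undiff libraries and 286 and 269.8 CPM in the Day4 libraries. For cDNA the values were 181 and 183 CPM in Undiff and 101 and 89.5 CPM in Day4. The replicates of each group lay close together, and the groups did not overlap. Here the call was made in cDNA, at -1.23 (standard error 0.42, adjusted p = 0.0313), and the Direct RNA value was -0.82 (standard error 0.31, adjusted p = 0.0671).

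The other MCM subunits were not uniform. Mcm5 had 795 and 522 CPM in the Direct RNA Undiff libraries and 321 and 296 CPM in the Day4 libraries, without overlap, and changed by -1.17 (standard error 0.31, adjusted p = 0.00337) on the log2 scale, and in cDNA it had 121 and 164 CPM in Undiff and 128 and 99.6 CPM in Day4, with overlap, and -0.62 (standard error 0.43, adjusted p = 0.486). Mcm4, among the 4 replication members with the highest mean log2 fold change, had 316 and 256 CPM in the Direct RNA Undiff libraries and 247 and 189.8 CPM in the Day4 libraries. By cDNA it reached 67.5 and 156 CPM in Undiff and 139.6 and 210.4 CPM in Day4. The groups overlapped in cDNA and not in Direct RNA, and the log2 fold changes were -0.49 and 0.31, both far from the threshold (adjusted p = 0.515 in Direct RNA and 0.869 in cDNA). Mcm3, Mcm6 and Mcm7 ranged from -0.93 to -0.16 by Direct RNA and by cDNA from -0.66 to -0.06, and none was called.

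Gmnn, geminin, the inhibitor of Cdt1, had 187 and 201 CPM in the Direct RNA Undiff libraries and 109 and 167 CPM in the Day4 libraries. On the cDNA side it had 841 and 617 CPM in Undiff and 376 and 408 CPM in Day4. The Day4 libraries lay below on both platforms, and the log2 fold change was -0.56 (standard error 0.41, adjusted p = 0.532) in Direct RNA and -1.22 (standard error 0.39, adjusted p = 0.019) in cDNA, where it was called. Its target Cdt1 stood at -0.29 and -1.21 and was not called by DESeq2, while edgeR called it lower in cDNA (adjusted p = 0.0279). Of the CMG helicase partners, Cdc45 and Gins1 stood at -0.96 and -0.72 by Direct RNA and -0.44 and -1.04 by cDNA. Orc6 stood at -0.60 and -0.44.

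Gins2, a further subunit of the CMG helicase, had 57 and 61 reads in the Direct RNA Undiff libraries and 38 and 138 in the Day4 libraries. The cDNA counts were 52 and 17 reads in Undiff and 20 and 18 in Day4. The states overlapped on both platforms, and the log2 fold changes were 0.43 (standard error 0.48, adjusted p = 0.778) in Direct RNA and -1.61 (standard error 0.80, adjusted p = 0.218) in cDNA, where edgeR called it lower (adjusted p = 0.012). In the annotation 67.3% of its exon bases lie opposite exons of Gse1. Counting used the strand for Direct RNA, and for cDNA the setting was not stated, so reads of these neighbours may not be separated in cDNA.

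The group of polymerases, clamp and strand processing held 10 genes, with medians of -0.61 on both platforms, and 1 call by DESeq2. Pole, the catalytic subunit of the leading strand polymerase, had 97.6 and 74.9 CPM in the Direct RNA Undiff libraries and 14.1 and 23.0 CPM in the Day4 libraries. The cDNA libraries gave 49.5 and 26.3 CPM in Undiff and 14.4 and 13.5 CPM in Day4. The groups did not overlap, and the log2 fold change was -2.12 (standard error 0.65, adjusted p = 0.0135) in Direct RNA and -1.70 (standard error 0.63, adjusted p = 0.0605) in cDNA, where it missed the threshold in DESeq2 and passed in edgeR (adjusted p = 0.00598). Pcna, the sliding clamp, had 51.7 and 72.7 CPM in the Direct RNA Undiff libraries and 38.8 and 47.5 CPM in the Day4 libraries. Its cDNA levels were 75.9 and 91.4 CPM in Undiff and 42.5 and 94.8 CPM in Day4. Day4 was lower in both Direct RNA libraries, while in cDNA Day4 replicate 2 was the highest of the 4 libraries. The log2 fold changes were -0.61 (standard error 0.61, adjusted p = 0.718) and -0.62 (standard error 0.49, adjusted p = 0.57), and neither was called. The other 8, Rfc2, Rfc4, Rpa2, Pola1, Pold1, Prim1, Fen1 and Lig1, ranged from -1.15 (Pold1) to -0.0019 (Rfc2) by Direct RNA and by cDNA from -1.44 (Rfc4) to -0.31 (Rfc2). Of these, edgeR called Rpa2 (-1.11, adjusted p = 0.00888) and Pold1 (-1.16, adjusted p = 0.0135) lower in Direct RNA and Rfc4 (-1.42, adjusted p = 0.0124) in cDNA.

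Of the 4 nucleotide supply genes, Rrm2, the small subunit of ribonucleotide reductase, had 468 and 472 CPM in the Direct RNA Undiff libraries and 265 and 264 CPM in the Day4 libraries. For cDNA the values were 583 and 747 CPM in Undiff and 328 and 471 CPM in Day4. The groups did not overlap on either platform. Its log2 fold change was -1.05 (standard error 0.37, adjusted p = 0.0423) in cDNA and -0.92 (standard error 0.31, adjusted p = 0.0315) in Direct RNA, where the size was below the threshold of 1. Rrm1, the large subunit of the same enzyme, had 281 and 228 CPM in the Direct RNA Undiff libraries and 268 and 279 CPM in the Day4 libraries. By cDNA it reached 54.8 and 93.8 CPM in Undiff and 72.8 and 115 CPM in Day4. The states overlapped on both platforms, with log2 fold changes of 0.01 and -0.0031. Tyms, thymidylate synthase, stood at -0.62 and -0.45, and Tk1, thymidine kinase, at -0.07 and -0.38.

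The G1/S group holds the 2 E-type cyclins, of which Ccne1 was called. Ccne1 had 376 and 451 CPM in the Direct RNA Undiff libraries and 56.4 and 81.3 CPM in the Day4 libraries. On the cDNA side it had 77.0 and 139.8 CPM in Undiff and 16.7 and 28.9 CPM in Day4. All Day4 libraries lay well below all Undiff libraries of their platform, and the log2 fold change was -2.60 (standard error 0.39, adjusted p = 2.56e-09) in Direct RNA and -2.50 (standard error 0.51, adjusted p = 3.03e-05) in cDNA. Ccne2 had 5 and 11 reads in the Direct RNA Undiff libraries and 5 and 21 in the Day4 libraries, and 2 and 11 reads in the cDNA Undiff libraries and 4 and 26 in the Day4 libraries. Day4 was above Undiff in CPM in Direct RNA and overlapped it in cDNA, and the log2 fold change was 0.66 (standard error 0.92, adjusted p = 0.852) in Direct RNA and 0.59 (standard error 1.07, adjusted p = 0.921) in cDNA. The difference between the cyclins was not tested, and 17.4% of the exon bases of Ccne2 lie opposite Ints8. Cdc25a, the phosphatase that activates Cdk2, had 89.0 and 112 CPM in the Direct RNA Undiff libraries and 162 and 96.3 CPM in the Day4 libraries. With the cDNA kit the levels were 8.43 and 12.9 CPM in Undiff and 12.9 and 21.2 CPM in Day4. The states overlapped on both platforms, and the log2 fold changes were 0.20 and 0.31. Cdk2, the partner kinase of cyclin E, stood at -0.30 and -0.53 and was not called.

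**Figure D3:**
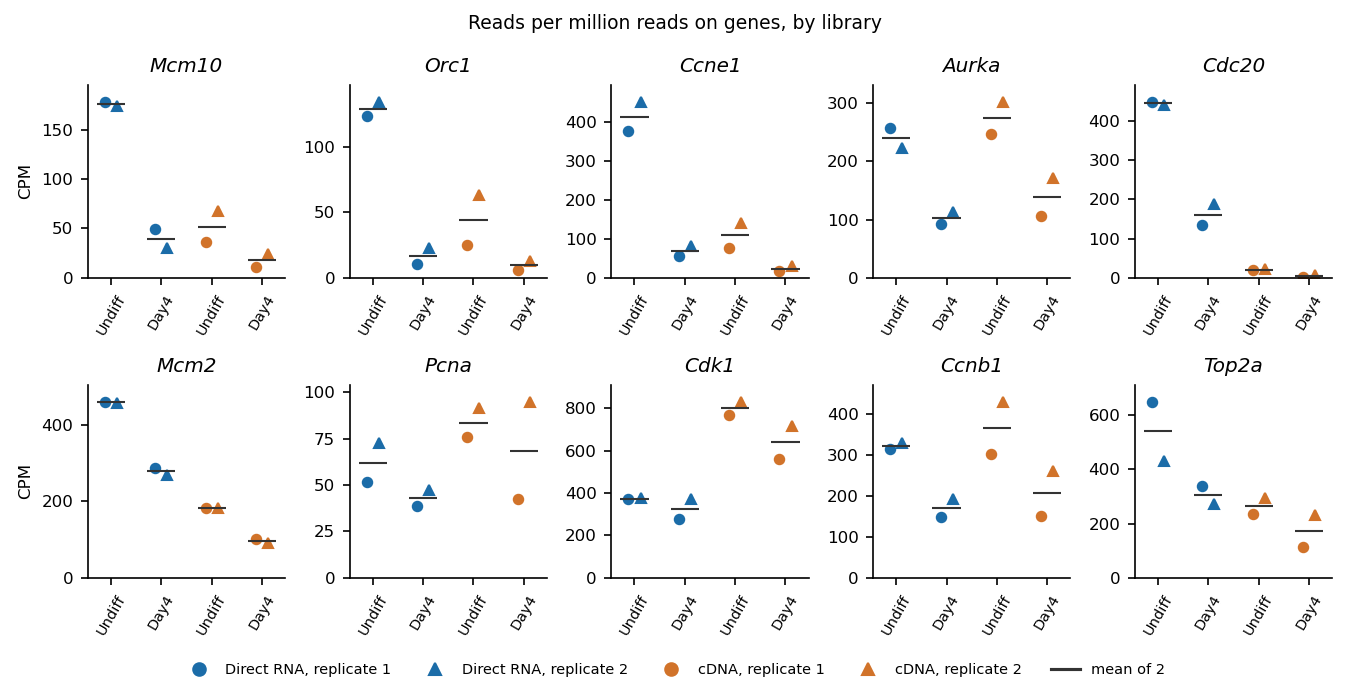
CPM in each of the 8 libraries for the 5 members called lower on both platforms (top) and for Mcm2, Pcna, Cdk1, Ccnb1 and Top2a (bottom). Points are libraries (circle replicate 1, triangle replicate 2), lines are means, and in the top row both Day4 libraries lie below both Undiff libraries on each platform.

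Among the 8 genes of mitotic entry, all were below 0 on both platforms, with medians of -0.41 in Direct RNA and -0.97 in cDNA. Aurka, the kinase of centrosome maturation, had 258 and 224 CPM in the Direct RNA Undiff libraries and 91.7 and 114 CPM in the Day4 libraries. The cDNA libraries gave 248 and 302 CPM in Undiff and 105 and 172 CPM in Day4. The groups were apart on both platforms, and the log2 fold change was -1.28 (standard error 0.40, adjusted p = 0.0158) in Direct RNA and -1.30 (standard error 0.40, adjusted p = 0.0146) in cDNA. Ccnb1, cyclin B1, had 313 and 327 CPM in the Direct RNA Undiff libraries and 148 and 193 CPM in the Day4 libraries. Its cDNA levels were 300.4 and 428 CPM in Undiff and 150.2 and 261 CPM in Day4. The groups were apart on both platforms as well. The log2 fold change was -1.15 (standard error 0.40, adjusted p = 0.0435) in cDNA and -0.98 (standard error 0.36, adjusted p = 0.0527) in Direct RNA, where it missed both thresholds narrowly.

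Cdk1, the kinase that cyclin B activates, had 370.2 and 376 CPM in the Direct RNA Undiff libraries and 279 and 371 CPM in the Day4 libraries. For cDNA the values were 769.5 and 829.7 CPM in Undiff and 562 and 716 CPM in Day4. In Direct RNA 1 Day4 library lay within the range of the Undiff libraries, and in cDNA both lay below. The log2 fold change was -0.29 (standard error 0.33, adjusted p = 0.782) in Direct RNA and -0.65 (standard error 0.36, adjusted p = 0.3) in cDNA, and neither was called. Of its small subunits Cks1b and Cks2, the latter was called in cDNA, and the difference between them was not tested. Cks1b had 353 and 447 CPM in the Direct RNA Undiff libraries and 299.9 and 403 CPM in the Day4 libraries, and 776 and 921 CPM in Undiff and 860.3 and 837 CPM in Day4 in cDNA. The states overlapped on both platforms, at -0.29 and -0.31. Cks2 had 91.8 and 126 CPM in the Direct RNA Undiff libraries and 70.6 and 107 CPM in the Day4 libraries, with overlap, and in cDNA it had 766 and 635 CPM in Undiff and 302 and 346 CPM in Day4, without overlap. Its log2 fold change was -1.43 (standard error 0.37, adjusted p = 0.00252) in cDNA, where it was called, and -0.38 (standard error 0.49, adjusted p = 0.836) in Direct RNA.

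Of the remaining genes of this group, Ccna2 (cyclin A2), Ccnb2 (cyclin B2) and the kinase Plk1 stood at -0.51, -0.35 and -0.45 by Direct RNA, against -0.87, -0.78 and -1.07 by cDNA. DESeq2 called none of these on either platform, and edgeR called Plk1 lower in cDNA (adjusted p = 0.0381).

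In the group of the spindle checkpoint and the anaphase-promoting complex, Cdc20 had 448 and 441 CPM in the Direct RNA Undiff libraries and 134 and 187 CPM in the Day4 libraries. By cDNA it reached 20.03 and 21.1 CPM in Undiff and 2.28 and 6.74 CPM in Day4, or 19, 44, 3 and 14 reads in the same order. The groups did not overlap, and the log2 fold change was -1.52 (standard error 0.34, adjusted p = 0.000271) in Direct RNA and -2.33 (standard error 0.80, adjusted p = 0.0352) in cDNA. Bub1b, the checkpoint protein BubR1, had 221 and 212 CPM in the Direct RNA Undiff libraries and 102 and 92.2 CPM in the Day4 libraries. On the cDNA side it had 29.5 and 92.9 CPM in Undiff and 30.3 and 36.6 CPM in Day4. The groups were apart in Direct RNA, and in cDNA Undiff replicate 1 lay below both Day4 libraries. The log2 fold change was -1.24 (standard error 0.41, adjusted p = 0.0243) in Direct RNA and -1.14 (standard error 0.58, adjusted p = 0.229) in cDNA, where edgeR called it lower (adjusted p = 0.0443). Bub1, Mad2l1 and Ube2c, the E2 enzyme of the anaphase-promoting complex, ranged from -0.92 to -0.59 by Direct RNA and by cDNA from -0.87 to -0.40. Ube2c had an adjusted p of 0.0378 in Direct RNA, with a change smaller than the threshold of 1.

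The chromosomal passenger complex holds Aurkb, Birc5 and Incenp. Birc5, survivin, had 321 and 309.6 CPM in the Direct RNA Undiff libraries and 155 and 206 CPM in the Day4 libraries. With the cDNA kit the levels were 1181 and 898 CPM in Undiff and 515 and 563 CPM in Day4. Day4 was lower without overlap on both platforms, and the log2 fold change was -1.26 (standard error 0.38, adjusted p = 0.0109) in cDNA, where it was called, and -0.87 (standard error 0.36, adjusted p = 0.0988) in Direct RNA. Aurkb, the kinase of the complex, had 126 and 92.6 CPM in the Direct RNA Undiff libraries and 113 and 129 CPM in the Day4 libraries. The cDNA libraries gave 169 and 117 CPM in Undiff and 130.5 and 169.9 CPM in Day4. The states overlapped on both platforms, at 0.07 and -0.27. Incenp, its scaffold, stood at -1.05 and -0.63 and was not called by DESeq2, while edgeR called it lower in Direct RNA (adjusted p = 0.0138). Cenpa, the centromeric histone, had 247 and 260.1 CPM in the Direct RNA Undiff libraries and 127 and 289 CPM in the Day4 libraries. Its cDNA levels were 326 and 360.1 CPM in Undiff and 267 and 375 CPM in Day4. The states overlapped on both platforms. Its log2 fold changes were -0.35 and -0.43, and those of the kinetochore motor Cenpe -0.54 and -0.38.

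Among spindle motors and chromosome structure genes, Kif11, the motor that separates spindle poles, had 164 and 151 CPM in the Direct RNA Undiff libraries and 63.5 and 66.4 CPM in the Day4 libraries. For cDNA the values were 29.5 and 37.8 CPM in Undiff and 11.4 and 27.9 CPM in Day4. The groups were apart on both platforms, and the log2 fold change was -1.34 (standard error 0.46, adjusted p = 0.0359) in Direct RNA and -1.07 (standard error 0.62, adjusted p = 0.337) in cDNA. Top2a, the topoisomerase that untangles chromosomes, had 649 and 432 CPM in the Direct RNA Undiff libraries and 339 and 271 CPM in the Day4 libraries. By cDNA it reached 235 and 293 CPM in Undiff and 115 and 231 CPM in Day4. Day4 was lower without overlap on both platforms. Its log2 fold change was -0.91 (standard error 0.32, adjusted p = 0.0452) in Direct RNA and -0.95 (standard error 0.42, adjusted p = 0.149) in cDNA, so the adjusted p passed in Direct RNA and the size did not reach 1. Tpx2, a spindle assembly factor, and the motor Kif20a stood at -0.92 and -0.88 by Direct RNA and -0.75 and -0.88 by cDNA.

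Mki67, the Ki-67 protein used as a mark of proliferating cells, had the highest mean log2 fold change of all 56. It had 89.0 and 54.0 CPM in the Direct RNA Undiff libraries and 95.3 and 73.2 CPM in the Day4 libraries. On the cDNA side it had 6.32 and 7.18 CPM in Undiff and 18.2 and 27.0 CPM in Day4, or 6, 15, 24 and 56 reads in the same order. The states overlapped in Direct RNA and were apart in cDNA, with Day4 above. DESeq2 gave 0.15 (standard error 0.53, adjusted p = 0.93) in Direct RNA and 1.31 (standard error 0.76, adjusted p = 0.336) in cDNA and called neither, while edgeR called the cDNA difference, at 1.42 with an adjusted p of 0.0469.

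A test of the interaction between platform and state asked whether the change differed between the kits. It treated the 8 libraries as independent, as did the comparison of the kits. DESeq2 called 2 genes of 17267 (0.0116%) and no member. Gins2 and Cks2 were the members among the 0.932% of all genes with an unadjusted p of at most 0.05 in DESeq2. The lowest adjusted value of a member was 0.9999. With edgeR 14 genes and no member were called, and 1 member, Gins2, had an unadjusted p of at most 0.05. A call on 1 platform only is thus not shown to be a difference between the platforms.

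Other genes of the same pathways were counted from lists of 40 further replication genes and 51 further mitotic genes. In Direct RNA 7 of 40 and 7 of 51 were lower and none was higher, and in cDNA 5 of 40 and 7 of 51 were lower and none was higher. The shares called lower among all genes were 7.67% and 9.24%, as above. By edgeR 11 and 16 were lower for the Direct RNA kit and 8 and 14 for the cDNA kit, with 1 replication gene higher in Direct RNA. The shares of all genes called lower by edgeR were 15.1% and 15.5%. Other settings lowered the counts. With the replicate block Direct RNA gave 5 and 3, beside 4.02% of all genes, and the cDNA counts with library totals are given under the processing below. Called lower on both platforms were 10 of these 91 genes. Over all genes 452 were called lower on both, of 9646 in Direct RNA and 10271 in cDNA that passed the filter on the mean. Of the 10, the 3 with the lowest mean log2 fold change were Mybl2, Uhrf1 and Rfc5. Mybl2, the B-Myb factor of mitotic gene promoters, had 257 and 783 reads in the Direct RNA Undiff libraries and 12 and 50 in the Day4 libraries. The cDNA counts were 39 and 242 reads in Undiff and 3 and 19 in Day4. The groups were far apart, with log2 fold changes of -3.84 (standard error 0.36, adjusted p = 3.96e-23) in Direct RNA and -3.87 (standard error 0.66, adjusted p = 3.66e-07) in cDNA. Uhrf1, which guides maintenance methylation at replication forks, stood at -2.15 (standard error 0.49, adjusted p = 0.000333) and -1.86 (standard error 0.43, adjusted p = 0.000329). Rfc5, a subunit of the clamp loader, stood at -1.89 (standard error 0.39, adjusted p = 4.14e-05) and -1.91 (standard error 0.43, adjusted p = 0.000268). The other 7 of these 10 were Ect2, Cdca5, Anln, Orc2, Cenpm, Tipin and Pole4.

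The kits were also compared with each other, with state as a covariate. In cDNA 18 of the 56 members were higher and 13 lower than in Direct RNA, and 25 were not called. Of all 10426 genes 24.7% were called higher and 26.6% lower. Of the replication members 9 were higher and 7 lower, and of the mitotic members 9 were higher and 6 lower. The direction of such counts depends on the scaling. With library totals the median of all genes moved from -0.02 to -0.77, and the counts became 3 higher and 14 lower for replication and 4 higher and 8 lower for mitosis, with 10.7% of all genes higher and 41.5% lower. With at least 10 reads in every library they were 4 higher and 10 lower for replication and 5 higher and 4 lower for mitosis, with 23.2% of the genes tested higher and 23.7% lower. Replication members lower in cDNA numbered 4 with edgeR, beside 27.7% of all genes, and 4 with TMM factors, beside 24.8%.

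The 3 highest in cDNA were Cks2 at 2.97 (standard error 0.30, adjusted p = 6.22e-22), Gmnn at 2.43 (standard error 0.26, adjusted p = 1.15e-18) and Birc5 at 2.38 (standard error 0.22, adjusted p = 2.38e-24). The 3 lowest were Kif20a at -4.08 (standard error 0.37, adjusted p = 3.1e-26), Cdc20 at -3.87 (standard error 0.32, adjusted p = 1.41e-31) and Ccna2 at -2.76 (standard error 0.26, adjusted p = 4.86e-24). Kif20a had 278 and 217 CPM in the Direct RNA Undiff libraries and 102 and 174 CPM in the Day4 libraries. The cDNA libraries gave 3.16 and 11.5 CPM in Undiff and 3.03 and 6.26 CPM in Day4, or 3, 24, 4 and 13 reads. Ccna2 had 373 and 342 CPM in the Direct RNA Undiff libraries and 293 and 248 CPM in the Day4 libraries. Its cDNA levels were 24.2 and 39.7 CPM in Undiff and 12.1 and 31.3 CPM in Day4. No cDNA library of Kif20a, Cdc20 or Ccna2 reached the level of any Direct RNA library, and no Direct RNA library of Cks2, Gmnn or Birc5 reached that of any cDNA library.

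Members called higher in cDNA had a median length of 2070 bases for the longest protein-coding transcript, those called lower 3632 bases, and those not called 3031 bases. Across all 56 members Spearman's rho between length and the log2 fold change of cDNA over Direct RNA was -0.39. It is a description over genes that share the same 8 libraries. The value over all genes was not computed, so rho is not shown to be particular to the members. Exceptions were at both ends, since Cdc20, at 1793 bases, was low in cDNA and Cenpe, at 7910 bases, was high. Exons on the opposite strand covered 29.3% of the exon bases of Kif20a (Cdc23), 12.5% of Ccna2 (Exosc9) and 2.84% of Cdc20 (Elovl1). Reads that fell on more than 1 gene and were counted for none made up 2.16% to 2.33% of the reads on genes or shared by genes in Direct RNA and 7.65% to 8.45% in cDNA. Transcripts of other loci with at least 90% identity over 30% or more of the member's transcript were found for 9 members (Cdc20, Cks2, Cks1b, Ccnb1, Plk1, Pcna, Rrm2, Mcm4 and Mcm7), processed pseudogenes except Cks1brt, and the levels of these are uncertain to that extent. The kits also differed in poly(A) RNA input, 500 ng for Direct RNA and 50 ng for cDNA, which cannot be told apart from the kit. The part of input, length, overlapping genes and copies in the differences between kits was not tested.

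**Figure D4:**
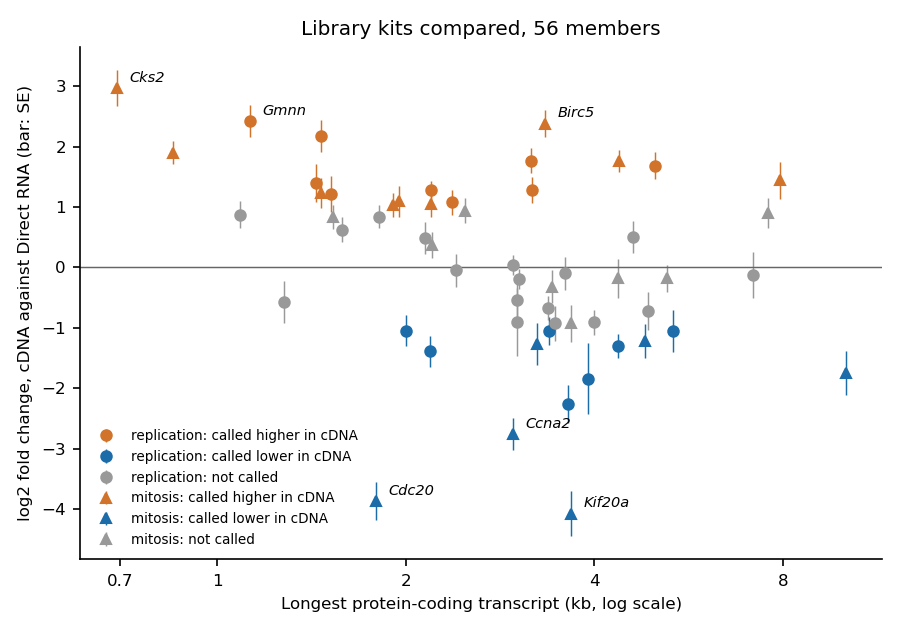
Log2 fold change of cDNA over Direct RNA for the 56 members, with standard errors, against the length of the longest protein-coding transcript (log scale, kb). Genes called higher in cDNA had a median length of 2070 bases and genes called lower 3632 bases, with Cdc20, Kif20a and Ccna2 lowest.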

How the data were processed

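The authors deposited whole-number read counts per gene symbol, obtained by aligning reads to mm10 with minimap2 and counting them with HTSeq on the UCSC annotation of iGenomes. Strand was used for Direct RNA, and the setting for cDNA was not stated. The counts had not been normalized, and the 5 counters of unassigned reads entered no fit. Members, lists and tests were chosen with earlier results of these data known. DESeq2 1.42.0 in R 4.3.3, with the settings of the study's methods (shrunken fold changes, Cook cutoff and independent filtering off), was fitted to all genes within each platform, and p-values were adjusted over all genes by the Benjamini-Hochberg method. The interaction (adjusted p of at most 0.05) and the platform test used all 8 libraries. The alternatives were edgeR 4.0.16 (quasi-likelihood), library totals, TMM factors, a minimum of 10 reads in every library, no shrinkage, filtering options, a replicate block and leaving out each library. The code of the fits was tested on counts simulated with the same dispersion for all genes. Such a test does not measure how reliable the calls are in these libraries.

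The named members are those called on both platforms, the 4 highest and 4 lowest of each list by mean log2 fold change, the 3 highest and 3 lowest between platforms, and Mcm2, Pcna, Ccne1, Cdk1, Ccnb1, Top2a and Mki67. Members called on 1 platform were described as well. Replicate counts differed beyond sampling noise in each group (chi-square per degree of freedom 2.68 to 14.9). Lengths, exon overlaps and copies (minimap2 2.31, at least 90% identity over 30% of the transcript) came from GENCODE vM21 on GRCm38, in which all 56 members were matched.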

Additional observations from a re-analysis of the deposited data

How the results depend on the processing

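Limits are the 2 libraries a group and the markers of other cell types that moved with the state. Reads were also few for Orc1, Ccne2, Kif20a and Mki67, for Cdc20 in cDNA and for Pole in Direct RNA Day4. Median log2 fold changes kept their direction under every alternative. Members lower (replication and mitosis) numbered 6 and 4 for Direct RNA, and 6 and 5 for cDNA. With edgeR cDNA gave 10 replication members lower and 1 mitotic member higher, beside 15.5% of all genes lower and 17.1% higher. With library totals cDNA gave 2 and 1 with a mitotic median of -0.54, beside 6.34% of all genes called lower. The Direct RNA replication median was then -0.51. With at least 10 reads in every library Direct RNA gave 2 replication members with a median of -0.44, and cDNA 3 mitotic members. Of the genes then tested, 7.58% were called lower in Direct RNA and 9.1% in cDNA. Members under that minimum were not tested, and Mcm5 in Direct RNA and Gmnn, Rrm2 and Ccnb1 in cDNA were tested and not called, with changes smaller than 1. With the replicate block Direct RNA gave 4 and 1 and cDNA 5 and 4. Without single libraries, where a lone library is assumed to vary like the other group, the counts ranged 1 to 4 and 0 to 2 for Direct RNA, and 0 to 2 and 0 to 2 for cDNA, with 0 higher in each, and the medians were -0.74 to -0.59 and -0.78 to -0.63 for Direct RNA, and -0.81 to -0.61 and -1.15 to -0.54 in cDNA. The differences between replicates 2 and 1 correlated between states at r = 0.21 in Direct RNA and 0.50 in cDNA over 1395 genes. Libraries of the same number thus varied together to some extent, and the labels do not say what they share. The main fit used the settings of the study's methods without a block, so it does not take this into account.

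Other pathway genes lower (replication and mitosis) numbered 7 and 7 for Direct RNA, and 5 and 7 for cDNA. With edgeR they were 11 and 16, with 1 replication gene higher, and 8 and 14. With library totals cDNA gave 2 of 40 and 3 of 51 with 1 mitotic gene higher, beside 6.34% of all genes called lower. At least 10 reads gave 1 replication gene higher in Direct RNA and 1 mitotic gene higher in cDNA. The replicate block gave 3 mitotic genes in Direct RNA, beside 4.02% of all genes called lower. Shares of all genes for the fits without single libraries are given with the members above. Without single libraries they ranged 0 to 2 and 1 to 2 for Direct RNA, and 1 to 2 and 1 to 2 for cDNA, with 0 higher.

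Between platforms, replication members lower in cDNA numbered 4 with edgeR and with TMM factors. Library totals gave 14 lower and 3 higher for replication and 4 higher for mitosis, and at least 10 reads gave 10 lower and 4 higher for replication and 4 lower and 5 higher for mitosis. Without single libraries 4 to 7 replication members were lower and 8 to 9 higher, and 5 to 7 mitotic members were lower and 7 to 10 higher. Across platforms the replicate differences correlated at 0.12 in Undiff and -0.42 in Day4. Crossing the Day4 numbers, chosen after seeing the data, gave 7 replication members lower and 9 higher, and 6 and 9 for mitosis. No setting gave an interaction call for a member. DESeq2 normalized counts gave a Day4 to Undiff ratio of 0.60 for replication and 0.56 for mitosis in cDNA. In the 150 bases before the start 7 replication windows held E2F and 2 CHR letters, and 7 mitotic windows CHR letters.

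Values that were not called turned sign without single libraries. These were Cdc25a in Direct RNA (-0.11 to 0.53), Rrm1 in Direct RNA (-0.13 to 0.11), Aurkb in Direct RNA (-0.14 to 0.21), Mki67 in Direct RNA (-0.17 to 0.36), Cenpa in Direct RNA (-1.08 to 0.15), Mcm4 in cDNA (-0.17 to 0.91), Aurkb in cDNA (-0.58 to 0.016), Kif20a in cDNA (-1.40 to 0.082) and Ccne2 in cDNA (-0.30 to 1.03). Aurkb in cDNA was 0.077 with library totals, and Cks1b in cDNA 8.538e-08. Rrm1 in cDNA, at -0.0031, was 0.017 with edgeR, 0.32 with library totals, 0.019 with TMM factors, 0.17 with at least 10 reads, 0.013 with the replicate block and -0.34 to 0.32 without single libraries. The causes of these shifts were not tested.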
